A study of Mus musculus with 4 samples.

Results

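The 41 genes described here act at the passage from G1 into S phase and in the copying of DNA. They were listed by name for these roles, and all 41 were found among the 25567 genes of the count tables. They were followed in single nuclei of the mouse hippocampus, each sequenced in 1 well of a plate by Smart-seq2, which reads full-length RNA without molecular identifiers. Mice were 8.5 months old and gave 4 libraries, 1 in each group, and the number of animals behind each is not given in the sources used here. The first pair was sorted for EdU, a thymidine analogue that enters newly made DNA. Mice received 2 injections of 100 mg per kg on each of 3 days, and isolation followed on day 4. This EdU+ pair came from Fasn-R1812W mice, whose fatty acid synthase has a substitution, and from wild-type (WT) mice. The other pair was sorted for the neuronal nuclear protein NeuN, again from Fasn-R1812W and from WT mice, and is the neuronal background against which the EdU+ wells were read.

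Origins of replication are licensed in G1 when Orc1, Cdc6 and Cdt1 load the Mcm2 to Mcm7 helicase ring, and they fire in S phase when Cdc7 kinase and the GINS complex switch that ring on. Polymerases, the Pcna clamp and its loader, flap and nick enzymes, nucleotide-making enzymes and chromatin factors then act at the fork. Most of these genes are switched on together at the G1/S boundary by E2F factors. In the adult hippocampus the dividing cells are mainly oligodendrocyte precursors, microglia and the radial glia-like cells and neuronal progenitors of the dentate gyrus. EdU stays in the DNA after S phase, whereas the RNA of a nucleus shows its state at isolation.

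Upstream sequence of 5 members is shown because E2F motifs near the start site are the regulatory feature that G1/S genes are known for. Mcm6, Dtl and Pola1 show it in different places, and Rrm2 and Cdc7, on which results below turn, do not show it. The sequences are the 250 bases before the RefSeq transcript start (build GRCm38.p6), 5′ to 3′ on the strand of the gene, and capitals mark any match to TTTCCCGC, TTTCGCGC, TTTGCCGC or TTTGGCGC on either strand.
Mcm6 (chr1:128359706-128359955, minus strand): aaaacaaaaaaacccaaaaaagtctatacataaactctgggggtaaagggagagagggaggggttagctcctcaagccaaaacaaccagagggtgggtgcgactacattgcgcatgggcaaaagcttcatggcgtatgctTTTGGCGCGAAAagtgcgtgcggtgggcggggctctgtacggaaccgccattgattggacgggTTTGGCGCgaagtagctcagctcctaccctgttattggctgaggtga
Dtl (chr1:191575545-191575794, minus strand): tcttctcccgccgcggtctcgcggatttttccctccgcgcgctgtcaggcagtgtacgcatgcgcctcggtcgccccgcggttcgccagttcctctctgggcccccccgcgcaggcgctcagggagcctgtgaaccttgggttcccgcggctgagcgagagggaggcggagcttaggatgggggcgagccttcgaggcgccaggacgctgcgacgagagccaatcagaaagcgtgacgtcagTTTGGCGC
Pola1 (chrX:93632156-93632405, minus strand): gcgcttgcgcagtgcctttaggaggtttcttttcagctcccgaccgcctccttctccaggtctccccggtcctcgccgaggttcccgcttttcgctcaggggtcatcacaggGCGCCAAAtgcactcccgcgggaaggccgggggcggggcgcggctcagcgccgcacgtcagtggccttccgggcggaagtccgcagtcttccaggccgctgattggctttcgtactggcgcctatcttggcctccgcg
Rrm2 (chr12:24708004-24708253, plus strand): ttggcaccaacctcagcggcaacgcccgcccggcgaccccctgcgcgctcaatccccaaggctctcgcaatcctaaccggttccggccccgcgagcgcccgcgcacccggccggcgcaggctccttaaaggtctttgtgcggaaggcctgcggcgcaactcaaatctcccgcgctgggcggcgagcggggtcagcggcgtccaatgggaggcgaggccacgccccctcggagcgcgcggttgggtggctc
Cdc7 (chr5:106964072-106964321, plus strand): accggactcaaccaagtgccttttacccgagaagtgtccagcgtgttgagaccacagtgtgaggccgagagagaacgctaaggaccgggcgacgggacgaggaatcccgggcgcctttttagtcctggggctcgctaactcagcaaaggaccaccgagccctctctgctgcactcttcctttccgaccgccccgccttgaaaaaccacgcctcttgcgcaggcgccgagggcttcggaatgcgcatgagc
Mcm6 holds 3 matches, of which 2 overlap, Dtl 1 that ends at the start site, and Pola1 1 on the opposite strand. None of the 4 motifs lies in the Rrm2 or Cdc7 stretch or in a second window of Cdc7, which says only that these letters are not there. A match describes the letters and is not a measured binding site. Over windows of 250 bases before to 50 bases after the start, 14 of 34 members with an entry held a match (41.2%), against 704 of 27025 genes in the whole table (2.605%). By window, where a gene may have several, 14 of 40 member windows held a match (35%), against 350 of 8101 windows of all genes with a G and C content at or above the member median of 61.8% (4.32%). The 14 were Cdc6, Cdt1, Clspn, Dtl, Lig1, Mcm3, Mcm5, Mcm6, Mcm7, Orc1, Pola1, Pold1, Rfc3 and Uhrf1. Members with no entry were Atad2, Ccne2, Exo1, Gins1, Gins2, Mcm4 and Pole. Genes of G2/M, the stage of mitosis preparation and mitosis, held a match in 6 of 49 cases (12.2%).

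Of 384 wells in each library, 348 EdU+ Fasn-R1812W, 167 EdU+ WT, 301 NeuN+ Fasn-R1812W and 314 NeuN+ WT wells had at least 1000 genes and 50000 reads and were kept. The EdU+ libraries differed in depth, with a median of 224967 reads and 3006 genes per kept Fasn-R1812W well against 80771 reads and 1298 genes per kept WT well. The NeuN+ libraries had 175328 reads and 4417 genes in Fasn-R1812W and 213337 reads and 4395.5 genes in WT. Neuronal markers were on in groups of 3 or more in 12.4% and 14.4% of EdU+ wells and in 100% and 99.7% of NeuN+ wells, where on means 10 or more reads. Oligodendrocyte precursor markers passed that bar in 71.0% and 83.2% of EdU+ wells and in 4.32% and 4.78% of NeuN+ wells, Fasn-R1812W before WT in both cases. Fasn stood at 103 and 166 CPM in EdU+ and at 31.6 and 35.2 CPM in NeuN+ libraries, and its level cannot check a label that names a substitution. CPM here is the usual depth-scaled level, the reads of a gene over the summed reads of the kept wells of its library. The 384 index pairs that name the wells were the same in all 4 libraries, and wells with the same index had mean correlations of 0.00546 to 0.0567 between libraries, against 0.00100 to 0.00271 for other pairs of wells.

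Wells with many of the 41 genes on were few, and the fullest ones were EdU+. At least 5 members were on in 14 of 348 Fasn-R1812W wells (4.02%, 95% interval 2.22 to 6.66) and in 7 of 167 WT wells (4.19%, 1.70 to 8.45). At least 10 members were on in 10 and 4 of these wells, and in none of 301 and 314 NeuN+ wells, which allows a share of up to 0.997% and 0.955%. The highest count was 30 members in 1 Fasn-R1812W well and 11 in 1 WT well, against 6 in each NeuN+ library. The EdU+ shares of the genotypes differed by less than their counting error. Intervals here cover counting error only, and they say nothing of the spread between animals.

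The bulk of EdU+ wells showed few of these genes. No member was on in 174 of 348 Fasn-R1812W wells (50%) and in 89 of 167 WT wells (53.3%), against 67 of 301 (22.3%) and 52 of 314 (16.6%) NeuN+ wells. From 2 to 4 members were on in a larger share of NeuN+ than of EdU+ wells, and NeuN+ wells also had more genes detected. Their 8 and 9 wells with at least 5 members on held exactly 5 in 7 and 8 cases, whereas no EdU+ well stood at exactly 5. How the gates compare at 5 members depends on the reads that make a member on. With on at 3 reads the share was 4.02% and 4.19% in EdU+ wells but 6.98% and 8.92% in NeuN+ wells, the turned direction. With every well thinned to 50000 reads and on at 10 reads, at least 5 members were on in 13 Fasn-R1812W and 7 WT EdU+ wells, against 0 and 1 NeuN+ wells. Thinned and on at 3 reads, they were on in 14 and 7 EdU+ wells and in 8 and 10 NeuN+ wells (2.66% and 3.18%), with overlapping intervals.

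**Figure D1:**
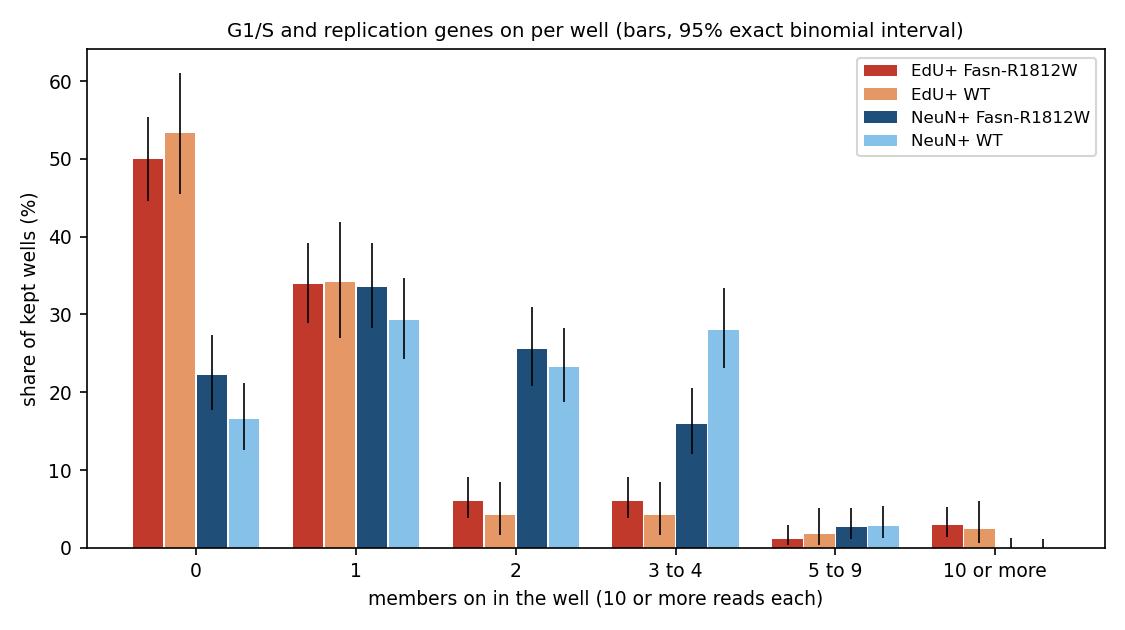
Share of kept wells (%, vertical axis) by the number of the 41 members on per well (horizontal axis), with 1 bar for each library and 95% exact binomial intervals from counting error. Wells with 10 or more members on are seen only in the EdU+ libraries, at 2.87% in Fasn-R1812W and 2.40% in WT, while wells with 2 to 4 members on are more frequent in NeuN+ libraries.

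The 21 EdU+ wells with at least 5 members on held 37.2% of all member reads of the Fasn-R1812W library and 45.0% of those of the WT library, although they held 3.97% and 4.37% of all reads. Summed over the members, these wells stood at 7902 CPM in Fasn-R1812W and 8184 CPM in WT, against 551 and 456 CPM in the other EdU+ wells. The wells were picked by these counts, so the contrast is a description. In NeuN+ wells with at least 5 on the sum was 977 and 1208 CPM, against 366 and 514 CPM in the other NeuN+ wells.

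Which members were on varied from well to well. To keep the choice of wells apart from the gene described, each member was read in wells with at least 5 of the other members on, which were the same 21 wells for every member. In them 39 of 41 members were on at least 1 time, and 39 had a higher share than in the other 494 EdU+ wells. No such count was made over all genes, and wells of the set were also richer. Their medians were 282584 reads and 3255 genes in Fasn-R1812W, against 224394 and 2999.5 in the other wells. In WT they were 84824 reads and 1601 genes, against 80424.5 and 1273. Lig1, the ligase that seals Okazaki fragments, Rrm2, the small subunit of ribonucleotide reductase, and Uhrf1, which carries DNA methylation to the new strand, were each on in 13 of 21 wells (61.9%). Elsewhere Lig1 was on in 13 of 494 other EdU+ wells, Rrm2 in 1 and Uhrf1 in 3. No member was on in all 21 wells.

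Members differed in how far they kept to this set. Pole, the catalytic subunit of the leading-strand polymerase, was on in 9 of the 21 wells and in none of the 494 others, and Brca1, a repair factor, in 9 and 2. Dtl, the adaptor that sends Cdt1 for destruction in S phase, was on in 11 and 3, and the checkpoint mediator Clspn in 10 and 5. E2f1, an activating E2F factor, was on in 6 and 1. In 11 of 41 members at least 75% of the wells that were on belonged to the set. Cdc7 was on in 10 of 21 and 18 of 494 EdU+ wells but in 150 of 615 NeuN+ wells (24.4%), and Gins2 in 4, 24 and 158 (25.7%). Over all kept wells, 22 of 41 members in Fasn-R1812W and 27 in WT were on in a smaller share of EdU+ than of NeuN+ wells. A larger share was seen for 19 and 14. With wells thinned to equal depth the direction turned, with 13 members smaller in each genotype and 27 and 23 larger. The same count over all genes was not made. Chaf1b, a histone chaperone subunit, and Ung, which removes uracil from DNA, were on in none of the 21 wells.

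**Figure D2:**
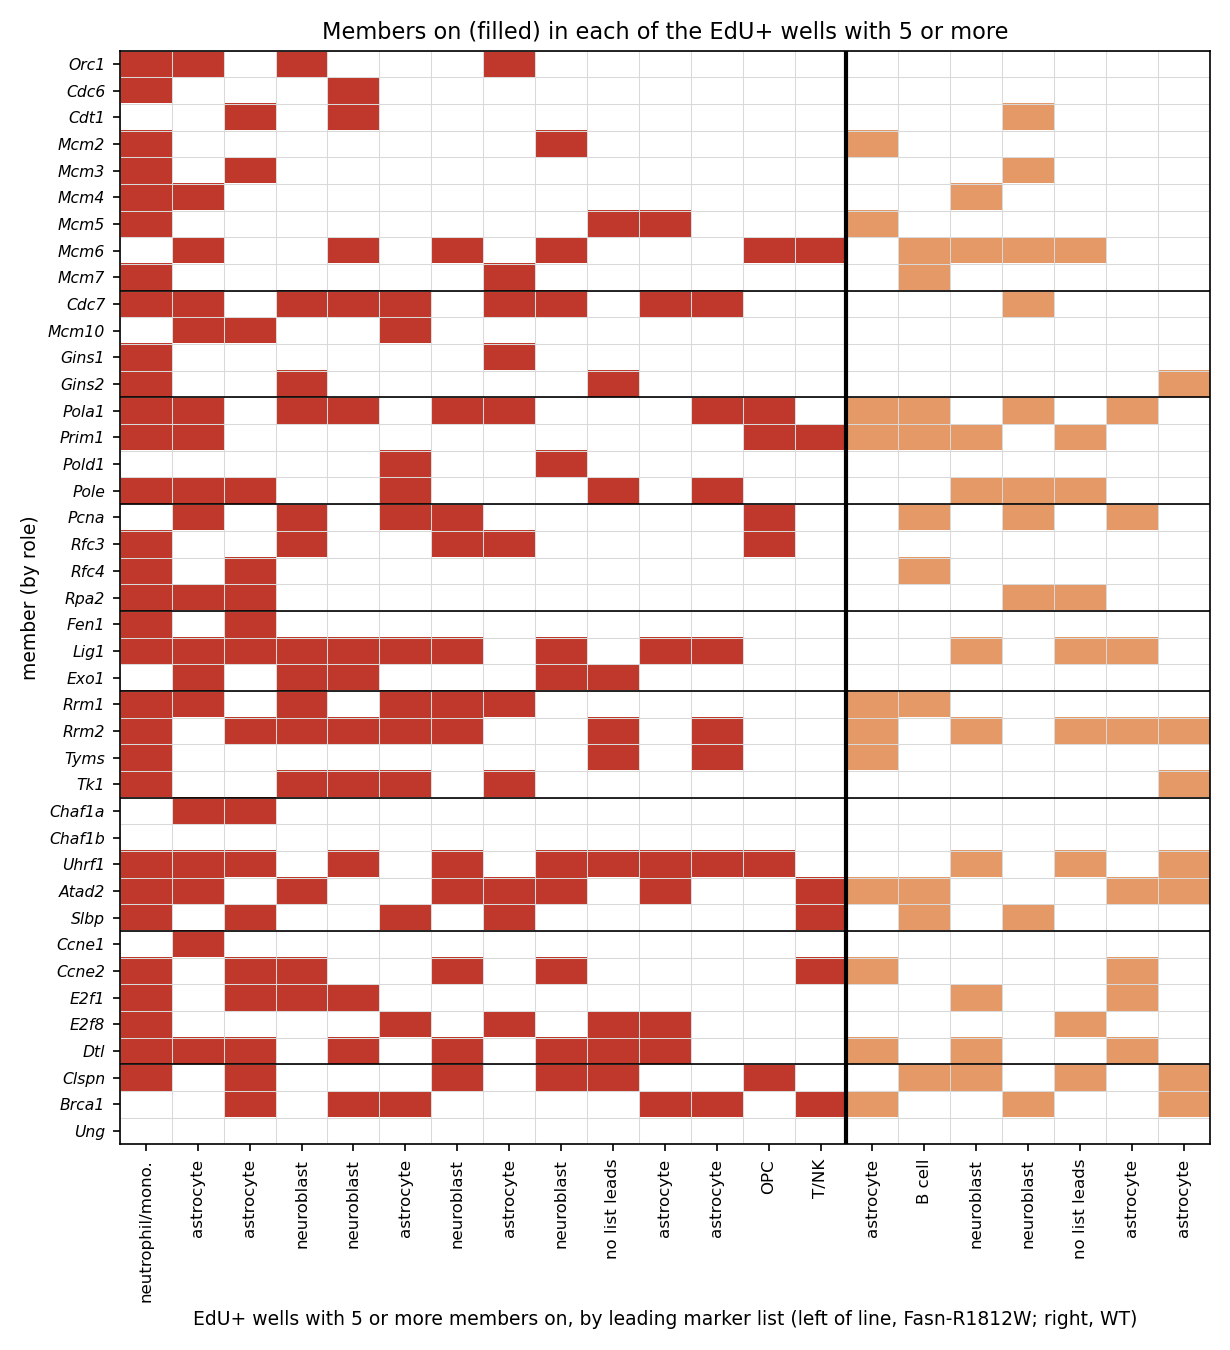
Each of the 41 members (rows, ordered by role) in each of the 21 EdU+ wells with 5 or more members on (columns, labelled by the marker list that leads in the well, with the 14 Fasn-R1812W wells left of the line and the 7 WT wells right of it). Filled cells are members on at 10 or more reads, and the rows of Lig1, Rrm2 and Uhrf1 are filled most often while those of Chaf1b and Ung are empty.

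Few of the wells with at least 5 members on reached 3 oligodendrocyte precursor markers, 2 of 14 in Fasn-R1812W and 1 of 7 in WT, against 245 of 334 and 138 of 160 other EdU+ wells. A well was assigned to the marker list with the most markers on when at least 3 were on and no other list tied. Among wells led by precursor markers, 1 of 234 Fasn-R1812W wells (0.427%, 0.0108 to 2.36) and 0 of 127 WT wells, which allows up to 2.36%, had at least 5 members on. Astrocyte markers led in 14 and 8 wells, of which 6 (42.9%, 17.7 to 71.1) and 3 (37.5%, 8.52 to 75.5) had at least 5 members on. Neuroblast markers led in 14 and 7 wells, of which 4 (28.6%, 8.39 to 58.1) and 2 (28.6%, 3.67 to 71.0) did. The interval of the precursor-led wells did not overlap those of the astrocyte-led and neuroblast-led wells in either library, except that with wells thinned the neuroblast-led WT wells, at 1 of 5 (0.505 to 71.6), overlapped the precursor-led ones. The intervals are over wells of 1 library, and those of the genotypes overlapped within each list.

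Microglial markers led in 37 and 3 wells, none with 5 members on, which allows up to 8.11% in Fasn-R1812W. The remaining wells of the set were led by neutrophil or monocyte, T or NK lymphocyte or B lymphocyte markers, 1 well each, or by no list, 1 well in each library. The well with 30 members on was the one led by neutrophil or monocyte markers. It held 5464 genes, and 6 markers of that list, 3 endothelial markers and 2 of each of 5 glial and neuroblast lists were on in it. The precursor-led well, with 7 members on, also held 5 B lymphocyte markers. No doublet caller was run, and whether these wells held more than 1 nucleus was not tested.

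The astrocyte share rests on the rule that this list leads. At least 3 astrocyte markers were on in 50% and 42.9% of the wells of the set and in 57.2% and 58.1% of the EdU+ wells outside it, no more often in the set. Among all wells with at least 3 astrocyte markers on, 7 of 198 (3.54%) and 3 of 96 (3.13%) had 5 members on, close to the share of each whole library. For neuroblast markers the same count gave 7 of 21 (33.3%) and 2 of 11 (18.2%). In a clustering made without cell cycle genes, 4 of 20 and 1 of 12 wells of the neuroblast-like cluster had at least 5 members on, and 2 of 9 and 1 of 8 wells of a radial glia-like cluster whose astrocyte score was nearly as high. The committed precursor-like cluster had 0 of 32 and 0 of 20 and the microglia-like cluster 0 of 31 and 0 of 3. A leukocyte-marked cluster, scored almost equally by neutrophil or monocyte and by T or NK markers, had 3 of 44 and 1 of 6. With the relaxed well filter an astrocyte-like cluster formed, with 1 of 18 and 0 of 30. The other 9 wells of the set fell in 2 main clusters that took no name, with 5 of 43 and 2 of 12 in the first and 0 of 41 and 2 of 20 in the second.

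**Figure D3:**
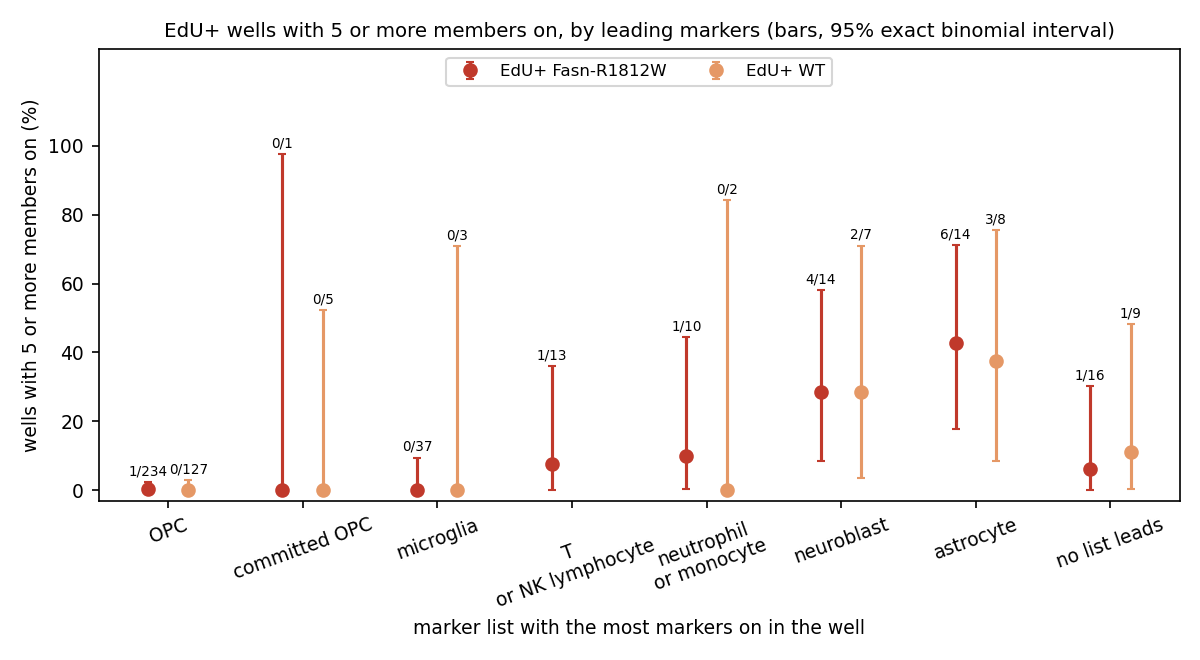
Share of EdU+ wells with 5 or more members on (%, vertical axis) by the marker list that leads in the well (horizontal axis, OPC for oligodendrocyte precursor), Fasn-R1812W left of WT, with 95% exact binomial intervals and the wells counted. The few wells led by B lymphocyte markers are not drawn. Precursor-led wells lie at or near 0 in both libraries, and astrocyte-led and neuroblast-led wells lie at 28.6% to 42.9%.

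Replication genes were read beside 58 genes of G2/M. At least 5 of these were also on in 12 of the 14 Fasn-R1812W wells and in all 7 WT wells of the set, with medians of 17.5 and 17 G2/M genes on, against a median of 1 in the other EdU+ wells of each library. A further 12 Fasn-R1812W and 6 WT wells had at least 5 G2/M genes but fewer than 5 members on. In NeuN+ libraries both sets passed 5 in 0 and 1 wells. G2/M genes alone passed 5 in 15 of 301 NeuN+ Fasn-R1812W wells (4.98%) and in 13 of 314 NeuN+ WT wells (4.14%). The same state had shares of 3.45% and 3.59% in the EdU+ Fasn-R1812W and WT libraries, so it was not particular to EdU+ wells.

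The G2/M genes and the members came together in some marker classes and not in others. Precursor-led wells with at least 5 G2/M genes on numbered 9 of 234 in Fasn-R1812W and 5 of 127 in WT. None of these 14 wells had 5 members on. In NeuN+ libraries G2/M genes alone passed 5 in 15 of 301 and 13 of 314 wells, so the precursor-led counts do not stand above the neuronal background. They held 0 to 4 members beside 5 to 33 G2/M genes. Mki67, the proliferation antigen of cycling cells, was on in all 9 and in 4 of the 5, and Cenpf, a kinetochore protein of G2 and mitosis, in 6 and 3. Both genes are on the list by which these wells were picked, so their being on is partly built into that choice. Rrm2, Uhrf1, Lig1 and Pola1 were on in 0 of the 9, and Lig1 alone among them in the 5, in 1 well. These genes were among those most often on in the 21 wells of the set, and all 14 precursor-led wells lie outside it. Among all 334 Fasn-R1812W wells outside the set, Rrm2 and Uhrf1 were on in 0, Lig1 in 7 and Pola1 in 17. The 0 of 9 is therefore largely built into the choice of wells as well. Astrocyte-led wells with at least 5 G2/M genes on numbered 6 and 3, of which 5 and 3 had at least 5 members on as well, and neuroblast-led ones 4 and 3, of which 4 and 2 did. These well counts are small, and no test across libraries was possible within 1 group.

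**Figure D4:**
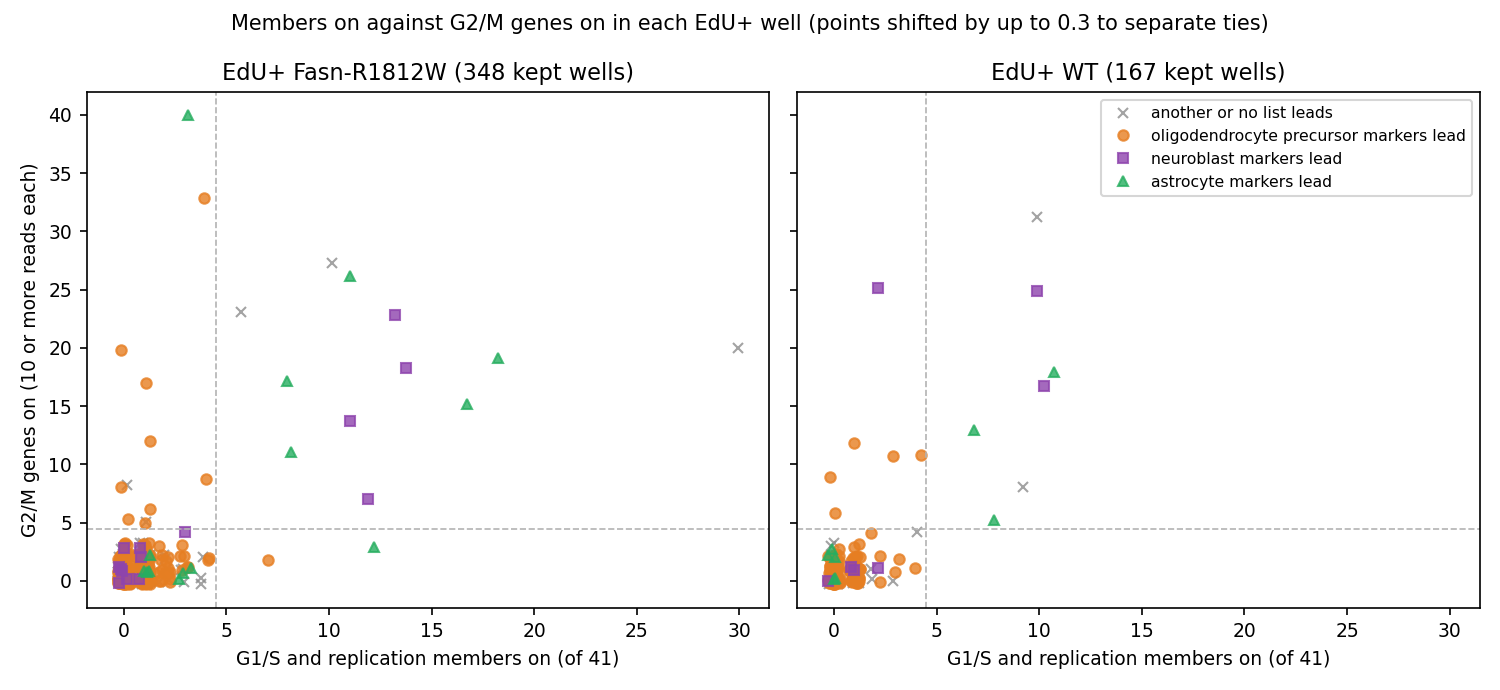
Number of the 41 members on (horizontal axis) against the number of 58 G2/M genes on (vertical axis) in each kept EdU+ well, Fasn-R1812W left and WT right, with points shifted slightly to separate ties and dashed lines at the bar of 5. Precursor-led wells climb along the vertical axis without passing 4 members on, apart from 1 Fasn-R1812W well with 7 members and 2 G2/M genes on, while most astrocyte-led and neuroblast-led wells above the horizontal line lie to the right of the vertical one, with 1 exception in each library.

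Pooled levels were then compared between gates in 1 fit over the 4 library sums, with gate and genotype as terms and 1 residual degree of freedom (edgeR's quasi-likelihood test, Benjamini-Hochberg adjustment over 17421 genes). In pooled sums fewer cells of a type and less RNA per cell cannot be told apart. Of the 41 members 1 rose in EdU+ at an adjusted p under 0.05, where 3.79% of all genes did, and 0 fell, where 2.85% did. At an unadjusted p under 0.05, 9 members were higher and 1 was lower, beside 10.3% and 10.4% of all genes. The member that rose was Rrm2 (adjusted p = 0.0263). It had 19.2 and 27.04 CPM in EdU+ Fasn-R1812W and WT libraries, and no read in either NeuN+ library. Against the limit of 3 reads per library that a count of 0 allows, that is at least 451-fold higher in Fasn-R1812W and at least 628-fold higher in WT. Of the Rrm2 reads 1 well held 55.9% in EdU+ Fasn-R1812W and 39.7% in EdU+ WT. Rrm2 was called in all 12 settings tried, Tk1 in 7, E2f8 and Uhrf1 in 5 and Dtl in 4. In 4 of these settings a library was left out and gate was the only term, so the gate with 1 library was assumed to vary like the other. Without the EdU+ Fasn-R1812W library 7 members were called higher, where 10% of all genes were, and 4 lower (Ccne1, Cdc7, Chaf1a and Fen1), where 14.1% were. Without the EdU+ WT library 8 were higher, where 9.94% of all genes were, and 1 lower (Ccne1), where 10.3% were.

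**Figure D5:**
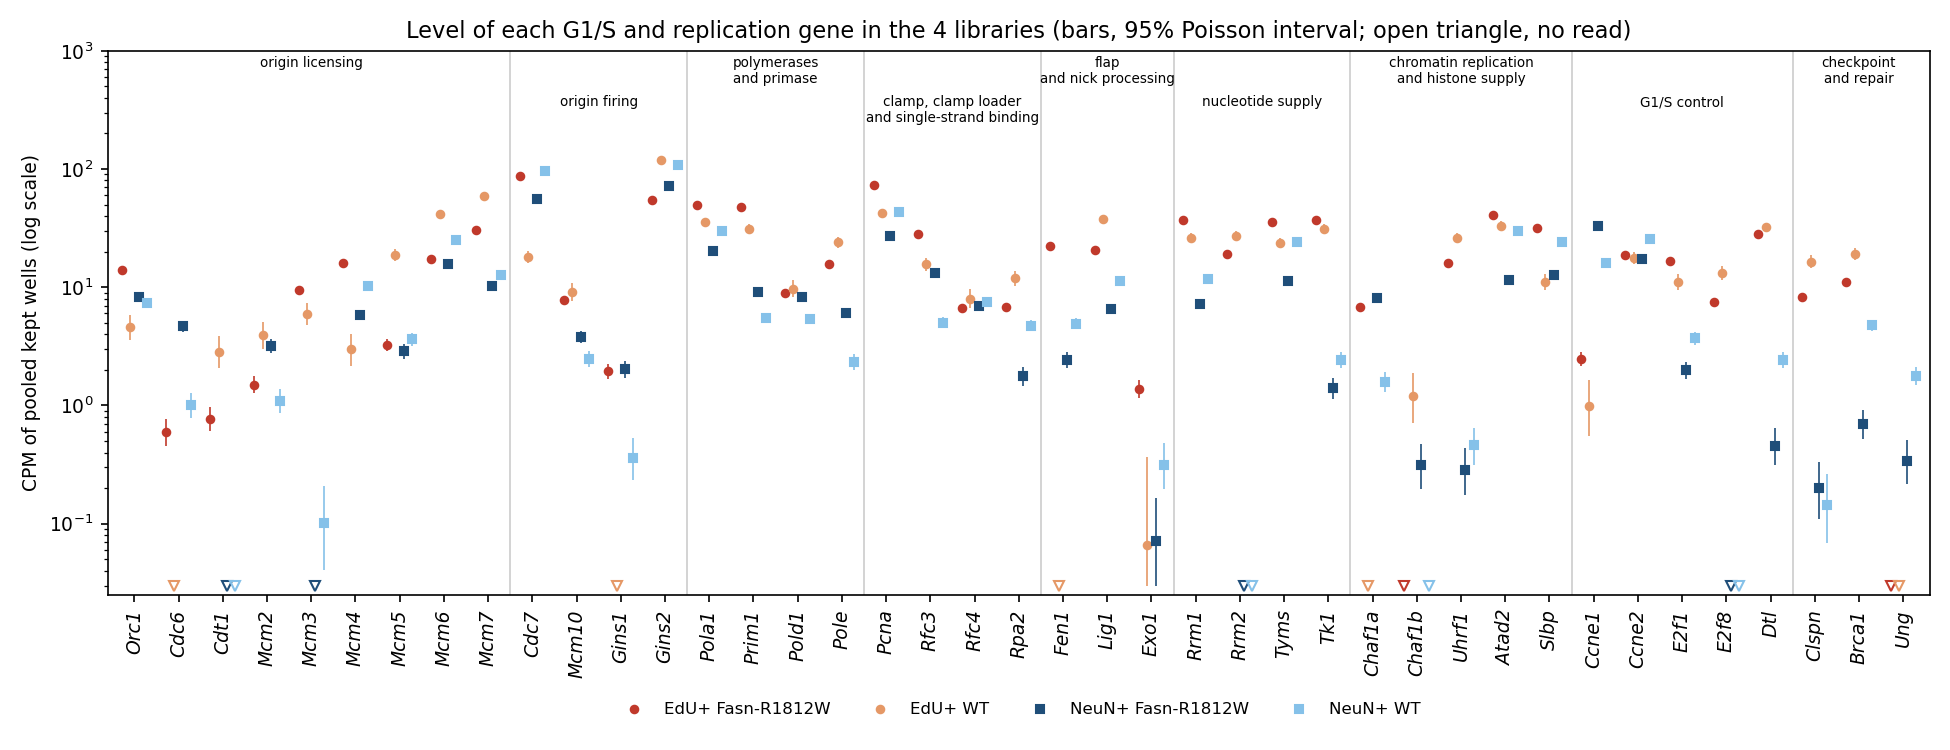
CPM of each member (vertical axis, log scale) in the EdU+ Fasn-R1812W, EdU+ WT, NeuN+ Fasn-R1812W and NeuN+ WT libraries, from left to right within a gene, grouped by role, with 95% Poisson intervals from counting error and open triangles for no read. Rrm2, Uhrf1, E2f8, Dtl, Clspn and Tk1 stand far above NeuN+ in both EdU+ libraries, whereas Ccne1 stands below.

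In origin licensing, the ring subunit Mcm7 had 30.3 CPM in EdU+ Fasn-R1812W and 58.6 CPM in EdU+ WT, against 10.2 and 12.7 CPM in NeuN+ (adjusted p = 0.218). Mcm6 had 17.2 and 41.9 CPM in EdU+ and 15.6 and 25.1 CPM in NeuN+, so its EdU+ Fasn-R1812W level lay within the NeuN+ range. Mcm4 had 16.0 and 2.98 CPM in EdU+ and 5.85 and 10.3 CPM in NeuN+, and the gates overlapped. All 45 Mcm4 reads of EdU+ WT came from 1 well. Mcm3 had 900 reads in EdU+ Fasn-R1812W and 90 in EdU+ WT, against 0 and 7 in NeuN+, at least 221-fold higher in Fasn-R1812W. Of the Mcm3 reads 1 well held 40.7% in EdU+ Fasn-R1812W and 71.1% in EdU+ WT. Mcm2 and Mcm5 stood at 1.498 to 18.8 CPM in EdU+ and at 1.09 to 3.63 CPM in NeuN+. The loading factor Cdt1 had 74 and 43 reads in EdU+ and none in NeuN+, at least 18.2-fold and 66.2-fold higher by the limit on reads. Of the Cdt1 reads 1 well held 75.7% in EdU+ Fasn-R1812W and 97.7% in EdU+ WT, so these folds rest on very few nuclei. Cdc6, the loading partner of Cdt1, had 57 reads in EdU+ Fasn-R1812W, none in EdU+ WT, and 328 and 70 in NeuN+. Orc1, the origin-binding subunit, had 14.0 and 4.57 CPM in EdU+ and 8.22 and 7.29 CPM in NeuN+.

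Among origin firing genes, Gins2 had 54.6 and 120 CPM in EdU+ against 71.5 and 108 CPM in NeuN+, with full overlap of the gates. Gins2 (GRCm38, chr8:120578633-120589304) shares 2758 of its 4097 exonic bases with Gse1 on the opposite strand, and reads of the pair cannot be told apart without a strand setting. Smaller overlaps with opposite-strand genes cover 321 bases of Mcm7, 474 of Slbp and 609 of Ccne2. Cdc7 (chr5:106964322-106984432) had 87.3 and 18.1 CPM in EdU+ and 55.9 and 95.9 CPM in NeuN+. Mcm10, which helps open the helicase, had 7.75 and 9.15 CPM in EdU+ and 3.80 and 2.47 CPM in NeuN+, both EdU+ values above both NeuN+ values. Of the Mcm10 reads 1 well held 40.5% in EdU+ Fasn-R1812W and 92.8% in EdU+ WT, so the WT value rests almost wholly on 1 nucleus. Gins1 had 1.96 CPM in EdU+ Fasn-R1812W, no read in EdU+ WT, and 2.03 and 0.359 CPM in NeuN+.

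Of the polymerase and primase genes, Prim1, the primase catalytic subunit, had 48.0 and 31.3 CPM in EdU+ against 9.07 and 5.53 CPM in NeuN+ (unadjusted p = 0.0218, adjusted p = 0.150). Pola1, whose polymerase extends the primer, had 50.003 and 35.7 CPM in EdU+ and 20.3 and 29.7 CPM in NeuN+. Pole had 15.7 and 24.0 CPM in EdU+ and 6.02 and 2.34 CPM in NeuN+. EdU+ lay above NeuN+ for all 3 of these genes in both genotypes. Of the Pole reads 1 well held 41.8% in EdU+ Fasn-R1812W and 75.1% in EdU+ WT. In NeuN+ 1 well held 98.3% of them in Fasn-R1812W and 51.5% in WT. Pold1, the lagging-strand polymerase, had 8.94 and 9.74 CPM in EdU+ and 8.22 and 5.38 CPM in NeuN+.

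The sliding clamp Pcna had 72.9 CPM in EdU+ Fasn-R1812W and 42.5 CPM in EdU+ WT, against 27.3 and 43.0 CPM in NeuN+, so the WT gates did not separate. Pcna has 2 named pseudogenes in the annotation, with which it may share reads. Its loader subunit Rfc3 had 28.3 and 15.7 CPM in EdU+ and 13.1 and 5.01 CPM in NeuN+. Rfc4, another loader subunit, had 6.65 and 8.02 CPM in EdU+ and 6.88 and 7.52 CPM in NeuN+, and the gates overlapped. Rpa2, which coats single strands, had 6.78 and 11.9 CPM in EdU+ against 1.76 and 4.72 CPM in NeuN+.

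Lig1 had 20.6 and 37.6 CPM in EdU+ against 6.54 and 11.4 CPM in NeuN+, above NeuN+ in both genotypes. The flap endonuclease Fen1 had 22.4 CPM in EdU+ Fasn-R1812W and no read in EdU+ WT, against 2.42 and 4.92 CPM in NeuN+. The exonuclease Exo1 had 1.38 CPM in EdU+ Fasn-R1812W and 1 read in EdU+ WT, against 5 and 22 reads in NeuN+.

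In nucleotide supply both EdU+ libraries lay above both NeuN+ libraries for 3 of 4 genes. Beside Rrm2, the salvage kinase Tk1 had 36.7 and 31.1 CPM in EdU+ against 1.39 and 2.43 CPM in NeuN+ (log2 fold change 4.17 ± 1.08 SE, adjusted p = 0.0727). Rrm1, the large reductase subunit, had 36.8 and 26.2 CPM in EdU+ and 7.17 and 11.7 CPM in NeuN+. Tyms, which makes thymidylate, had 35.7 and 23.7 CPM in EdU+ and 11.2 and 24.3 CPM in NeuN+, and overlapped in WT.

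Among chromatin and histone genes, Uhrf1 had 16.1 and 26.1 CPM in EdU+ against 0.284 and 0.459 CPM in NeuN+ (log2 fold change 5.79 ± 1.49 SE, adjusted p = 0.0718). Atad2, a bromodomain protein of replicating chromatin, had 40.7 and 33.2 CPM in EdU+ and 11.5 and 29.7 CPM in NeuN+. Slbp, which binds the stem-loop of histone messages, had 31.5 and 11.1 CPM in EdU+ and 12.8 and 24.0 CPM in NeuN+, with overlap of the gates. Chaf1a and Chaf1b, 2 subunits of the chromatin assembly factor, stood at 0 to 6.82 CPM in EdU+ and at 0 to 8.14 CPM in NeuN+. Chaf1a shares 4648 of 8854 exonic bases with Ubxn6 on the opposite strand.

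The G1/S control genes went different ways. Dtl had 28.2 and 32.3 CPM in EdU+ against 0.455 and 2.43 CPM in NeuN+ (log2 fold change 4.80 ± 1.30 SE, adjusted p = 0.0832). E2f8, a late E2F repressor, had 719 and 199 reads in EdU+ and none in NeuN+, at least 177-fold and 306-fold higher (adjusted p = 0.0823). Of the E2f8 reads 1 well held 26.4% in EdU+ Fasn-R1812W and 80.9% in EdU+ WT. Ccne1, cyclin E1, had 2.48 and 0.994 CPM in EdU+ against 32.7 and 15.9 CPM in NeuN+ (log2 fold change -3.88 ± 1.22 SE, unadjusted p = 0.0161, adjusted p = 0.124). Its relative Ccne2 had 18.7 and 17.7 CPM in EdU+ and 17.2 and 25.4 CPM in NeuN+, with overlap. E2f1 had 16.7 and 11.1 CPM in EdU+ and 1.98 and 3.70 CPM in NeuN+, and 1 well held 70.3% and 89.9% of its EdU+ reads.

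In checkpoint and repair, Clspn had 8.26 and 16.5 CPM in EdU+ against 0.199 and 0.144 CPM in NeuN+ (adjusted p = 0.142). Brca1 had 11.0 and 19.2 CPM in EdU+ and 0.697 and 4.77 CPM in NeuN+. Ung had no read in either EdU+ library and 24 and 124 reads in NeuN+. Across all 41 members, the median log2 ratio of EdU+ over NeuN+ (1 CPM added) was 1.25 in Fasn-R1812W and 1.10 in WT. With no level filter, 24 of 41 members were at least 2-fold higher in Fasn-R1812W and 21 in WT, and 2 and 8 were at least 2-fold lower. These counts include members with few or no reads, and no share over all genes was computed without a filter to set beside them. With genes kept by a mean of 10 CPM over the 4 libraries, 15 of 20 members were at least 2-fold higher in EdU+ Fasn-R1812W, where 21.9% of all 12224 genes were, and 1 was lower (Ccne1), where 20.8% were. In WT 10 of the 20 were higher, where 22.3% of genes were, and 3 were lower (Slbp, Cdc7 and Ccne1), where 21% were. A filter that asked for 10 CPM and a read in 10% of wells in either library compared gave other counts, because it passed members through different libraries. In Fasn-R1812W it left 15, of which 7 passed in EdU+ alone, with 11 higher and 1 lower (20.3% and 22.4% of all genes) and a median of 1.39. In WT it left 12, of which 10 passed in NeuN+ alone, with 2 higher and 3 lower (14.5% and 24.4%) and a median of 0.06.

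The genotypes could be compared within the EdU+ gate only as 2 libraries. Over all 41 members the median log2 ratio of Fasn-R1812W over WT was 0.07, with 21 above 0 and 19 below. With the mean of 10 CPM over the 4 libraries, 2 of 20 members were at least 2-fold higher (Cdc7 and Slbp), where 17.1% of all genes were, and 2 were lower (Mcm6 and Gins2), where 15% were. The filter on either library left 14 members, of which 12 passed in the deeper Fasn-R1812W library alone. Of these 14, 2 were higher, where 17.3% of all 9195 genes were, and 1 was lower (Gins2), where 8.05% were. All 4 of these member shares lay below the share over all genes. Cdc7 was on in 24 of 348 Fasn-R1812W wells and in 4 of 167 WT wells (log2 ratio of the levels given above, 2.21), and Slbp in 20 and 4 (1.43). Gins2 was on in 21 and 7 wells (log2 ratio -1.12). The well with the most reads held 22.4% and 41.8% of Cdc7 reads, 21.8% and 55.7% of Slbp reads and 22.6% and 34.8% of Gins2 reads. With that well left out for each gene, Cdc7, Slbp, Tyms and Pola1 were at least 2-fold higher (log2 ratios 2.58, 2.12, 1.22 and 1.07) and 0 members were lower. With the relaxed well filter Cdc7 came to a log2 ratio of 0.66 and Gins2 to -0.13, so neither was 2-fold apart, while Slbp came to 1.69. The Fasn-R1812W library was also the deeper one, and depth and genotype cannot be told apart in this pair.

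In the NeuN+ gate the median log2 ratio of Fasn-R1812W over WT was -0.29 over all 41 members, with 13 above 0 and 25 below. With the mean filter 2 of 20 members were at least 2-fold higher (Pole and Rfc3), where 4.59% of all genes were, and 3 were lower (Dtl, Tyms and Atad2), where 4.05% were. The filter on either library left 12, of which 0 were higher and 2 lower, where 3.2% and 3.01% of all 10872 genes were. These were Tyms (log2 ratio -1.05) and Atad2 (log2 ratio -1.29), and 4 of the 12 passed in WT alone. In the fit of genotype over both gates, 0 of 41 members were called in either direction by edgeR, and 0 by DESeq2, where edgeR called 0.00574% of all genes higher and 0% lower. At an unadjusted p under 0.05 edgeR called 0 members, where 1.13% of all genes were higher and 0.459% lower.

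Other genes of replication and G1/S were read in the same fit, where 3 of 70 rose in EdU+ and 0 fell. Of all genes 3.79% rose and 2.85% fell, so the 3 that rose are near the share over all genes. The 3 were Ccnd1, Ccnd3 (adjusted p = 0.0192) and Cdk6 (adjusted p = 0.0220), D-type cyclins and their kinase partner, which act in G1. Of 57 G2/M genes tested 5 rose, Top2a, Cenpf, Tmpo, Ckap2 and Mki67, and 0 fell, beside the same shares of all genes. Ccnd1 had 286 and 275 CPM in EdU+ against 25.5 and 9.57 CPM in NeuN+ (log2 fold change 4.13 ± 0.46 SE, adjusted p = 0.00525). Ccnd2 had 225 and 262 CPM in EdU+ and 200 and 148 CPM in NeuN+ (adjusted p = 0.4997). Orc4 had 104 and 133 CPM in EdU+ and 143 and 172 CPM in NeuN+, and Mcmbp, which binds the Mcm ring, had 179 and 151 CPM in EdU+ and 78.2 and 97.8 CPM in NeuN+ (adjusted p = 0.517 and 0.232). Of the G2/M genes, Mki67 had 105 and 142 CPM in EdU+ against 33.3 and 24.1 CPM in NeuN+ (adjusted p = 0.0487), and Tmpo, a lamina protein, 169 and 124 against 25.1 and 37.6 CPM (adjusted p = 0.0404). Hjurp, a chaperone of centromeric histone, had 226 and 293 CPM in EdU+ and 120 and 103 CPM in NeuN+, and Smc2, a condensin subunit, had 40.9 and 45.2 CPM in EdU+ and 55.6 and 87.6 CPM in NeuN+ (adjusted p = 0.0919 and 0.491).

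Genes outside the list that followed the number of members on per well did so weakly. In EdU+ wells thinned to 50000 reads, Spearman's rho with the count of members at 3 or more reads was highest, by the smaller of the 2 library values over 3968 genes, for Hjurp at 0.219 over 348 Fasn-R1812W wells and 0.240 over 167 WT wells. Mki67 stood at 0.218 and 0.326 and Ezh2, a histone methyltransferase, at 0.216 and 0.218. Rif1, Rpl19, Ncl, Smc4, Mybl1, Cit and Hspe1 followed, with smaller values from 0.168 to 0.191. The wells of a library share its preparation, and these values are descriptions.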

How the data were processed

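The authors deposited raw whole-number read counts per gene and well. Trimmomatic 0.36, STAR 2.5.3a and the build GRCm38.p5 are named per the submitters' processing notes. Which program counted the reads, on what annotation and with which strand rule is not given in the sources used here, so reads of overlapping opposite-strand genes cannot be told apart. The tables held 384 wells per library where the labels state 382 nuclei. Total counts were 96597804 in EdU+ Fasn-R1812W, 36368990 in EdU+ WT, 72468235 in NeuN+ Fasn-R1812W and 71221156 in NeuN+ WT. Nuclei from embryos were not analysed here.

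Wells with at least 1000 genes and 50000 reads were kept and summed per library. A member was on at 10 or more reads, and a count of 0 was given the limit of 3 reads. Gene positions and overlaps came from GENCODE M21. Log2 ratios used a prior of 1 CPM. The gate and genotype fits used edgeR 4.0.16 in R 4.3.3 with TMM scaling on library sums. Library sums are whole libraries and not separate animals, and each group held 1 library, so spread between replicate libraries could not be measured. In the fit with both terms, the 1 residual degree of freedom is the departure of the 4 sums from additive gate and genotype effects. The p-values and SEs of that fit rest on this departure and not on replicate spread. DESeq2 1.42.0 served as an alternative, together with other well filters, thinning, scaling and the libraries left out in turn. On simulated counts over 18420 genes, the gate fit called 50 of 50 genes changed 8-fold and 40 of 50 changed 4-fold upward, and 50 and 38 of 50 changed as much downward. The simulated counts were drawn with a smaller spread than the real ones, whose common dispersion was 0.604. Only genes with a mean of at least 10 CPM were changed in them. Recovery at the real spread, or of genes with fewer reads, was not tested. The fit on the real counts tested 17421 genes. Clusters of EdU+ wells came from scanpy 1.11.5 and igraph 0.11.9 (2000 variable genes, 20 components, 15 neighbours, resolution 1), without cell cycle, Y-linked, mitochondrial and Xist genes.

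The members, gene lists and markers were chosen with earlier results of these data known. Named members were the 3 of each role with the highest mean CPM and any covered by a count of 5 or fewer, with 4 genes for each other list and the 10 most alike in wells. The other members were named after their values were seen. Assignment of wells by leading markers was 1 of the alternatives to clustering, and its own alternatives were added after seeing the data, as was the level filter on the mean over the 4 libraries. Intervals are exact Poisson for counts and Clopper-Pearson for shares, at 95%. The limit that a share of 0 allows is instead 3 wells over the wells counted, a 1-sided bound. Upper ends of the 2-sided intervals are higher. They were 1.22% and 1.17% for NeuN+ wells with at least 10 members on, 2.86% for precursor-led WT wells and 9.49% for microglia-led Fasn-R1812W wells. Reads carry no molecular identifiers, so intervals and limits cover counting error only.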

Additional observations from a re-analysis of the deposited data

Results flagged for a closer look

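Mcm4, Fen1 and Slbp were at least 2-fold apart between the gates in opposite directions in the 2 genotypes. The log2 ratio of EdU+ over NeuN+ for Mcm4 was 1.32 in Fasn-R1812W and -1.51 in WT. For Fen1 it was 2.78 in Fasn-R1812W and -2.57 in WT (1 CPM added), where EdU+ WT had no read and lay at least 24.8-fold below NeuN+ WT by the limit of 3 reads. For Slbp it was 1.23 in Fasn-R1812W and -1.05 in WT. These differences rest on 1 library each and were not tested. In the EdU+ WT library 1 well held all Mcm4 reads and 55.7% of Slbp reads.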

How the results depend on the processing

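The number of members called higher in EdU+ was 1 and came to 2 with the relaxed or no well filter, 5 with wells thinned, 9 with DESeq2's Wald test and 4 with gate as the only term. It ranged from 1 to 8 with a library left out. Members called for genotype stayed at 0 in the alternatives that kept all 4 libraries. Where a library was left out, genotype was the only term and the difference between gates counted as spread. Those fits therefore cannot decide whether members differ by genotype. Members 2-fold apart between EdU+ genotypes came to 1 with wells thinned, where 4 passed the filter, against 3. The share of EdU+ wells with at least 5 members on was 21.6% in Fasn-R1812W with members on at 1 read and 10.1% with 3 members needed. Among thinned wells under 2000 genes it was 0% in Fasn-R1812W (10 wells). From 2000 to under 3000 genes it was 33.3% in WT (9 wells), and from 3000 genes 0% (1 well). Precursor-led Fasn-R1812W wells came to 0% with wells thinned. Over the counts and shares of members 132 alternatives stayed within 1.5 times a count or inside a share's interval, and 17 did not. Many of these shares come from few wells, with intervals too wide to leave easily. For WT wells they ran from 0 to 70.8% when led by microglial markers (3 wells) and from 3.67 to 71.0% by neuroblast markers (7 wells). The tally therefore says little of how stable those shares are. Over all genes the gate fit called 660 higher and 496 lower, against 1109 and 822 with the relaxed well filter, 1098 and 804 without one, 1382 and 1368 thinned and 1836 and 1804 by DESeq2. For genotype it called 1 higher and 0 lower, against 53 and 11 by DESeq2 and 15 and 0 thinned. Without the EdU+ Fasn-R1812W library the gate fit called 1831 and 2571 with gate as the only term, and without the EdU+ WT library 1868 and 1928. No paired analysis was possible because each group held 1 library, so replicate numbers pair nothing; genotype was a term of the gate fit, and without it 4 members were called. Depth limits what low EdU+ WT values can show.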
